A study of Homo sapiens with 5 samples.

Results

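The heterogeneous nuclear ribonucleoproteins (hnRNPs) and the serine/arginine-rich (SR) splicing factors were followed across 5 libraries of the human lung adenocarcinoma cell line A549. Genes were chosen by symbol alone: the 20 HNRNP genes A0, A1, A2B1, A3, AB, C, D, DL, F, H1, H2, H3, K, L, LL, M, R, U, UL1 and UL2, and the 12 genes whose symbol is SRSF followed by a number. Each of the 32 symbols was found in 1 row of the 58929 genes listed. No measured value entered this rule, but the genes were chosen with earlier results of these data known.

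hnRNPs coat nascent transcripts and often keep the splicing machinery away from weak exons. SR proteins bind exonic enhancers through an RNA recognition motif and recruit that machinery through an arginine- and serine-rich domain. Many genes of both families limit their own output by splicing in an exon, or keeping an intron, that sends the transcript to nonsense-mediated decay.

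The series depleted or overexpressed RBMS1, an RNA-binding protein with RNA recognition motifs of its own, in stable A549 lines. The groups were a short hairpin (sh) control of 1 library, RBMS1 knockdown of 2 libraries made with different hairpins (sh1088 and sh1196), a control named pCDH of 1 library, and RBMS1 overexpression (named R1A) of 1 library. All lines were grown in F12K medium with serum and were treated with cycloheximide, which stalls ribosomes, before lysis. The series' design text calls the libraries ribosome footprints, whereas their molecule label reads total RNA. No matched input library was analysed here, so a change in mRNA amount and a change in translation cannot be told apart, nor can fewer cells and less RNA per cell in a bulk lysate. The labels do not say whether a line is 1 clone or a pool, and beyond their hairpins nothing in them ties the 2 knockdown libraries to separate cultures. A p-value here thus reflects the spread of these libraries alone, and that spread may be technical.

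Several of these genes have near-identical processed copies elsewhere in the genome, which bears on how far their counts can be trusted. The first 60 coding bases of 2 genes are shown with the same bases of the copy that shares most of their coding sequence, in GENCODE release 29 (GRCh38), 5′ to 3′, with differing bases in capitals. They were picked after the sharing was seen, to show a copy with few and a copy with more differences. HNRNPC is read on the minus strand of chr14:21234134-21234193 in exon 3 and HNRNPH1 on the minus strand of chr5:179623074-179623133 in exon 1 of the transcript used. The copies are HNRNPCP2 (chr2:189923336-189924216, plus strand) and HNRNPH1P3 (chr5:55838801-55840025, minus strand).
HNRNPC: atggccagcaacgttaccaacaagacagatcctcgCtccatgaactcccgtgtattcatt
HNRNPCP2: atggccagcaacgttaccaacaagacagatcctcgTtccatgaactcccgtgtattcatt
HNRNPH1: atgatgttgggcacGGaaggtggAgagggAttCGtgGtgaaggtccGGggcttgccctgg
HNRNPH1P3: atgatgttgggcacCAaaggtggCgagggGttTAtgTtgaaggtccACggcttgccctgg
The 60 bases differed at 1 position between HNRNPC and HNRNPCP2 and at 9 between HNRNPH1 and HNRNPH1P3. Cut into overlapping pieces of 30 bases, about the size of a ribosome footprint, 96.8% of the HNRNPA1 coding sequence was found in transcripts of 78 other genes, of which 71 are named as its pseudogenes. The share was 93.8% for HNRNPA3, 75.6% for HNRNPC, 66.6% for HNRNPK and 14.4% for HNRNPH1. It was 0% for HNRNPA0, HNRNPA2B1, HNRNPLL, HNRNPUL1, SRSF4, SRSF5, SRSF7 and SRSF12. The deposited lengths imply median fragments of 45.0 nt under the sh control, 42.4 nt under sh1088 and 45.3 nt under sh1196. Under pCDH they imply 51.3 nt and under overexpression 39.9 nt, all longer than the pieces of 30 bases. Sharing at those lengths was not computed.

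Other genes share exons with a second annotated gene at the same place. SRSF1, the factor first known as ASF/SF2, shares 96.4% of its pieces with AC015813.2, and HNRNPUL2, an hnRNP U paralog, shares 96.5% with the readthrough gene HNRNPUL2-BSCL2. HNRNPL shares 56.1% of its pieces with other genes, among them AC008982.1 on the same strand. The gene that shares most of them is HNRNPLP2 (35.0%), named as its pseudogene. SRSF6 shares 45.0%, nearly all with AC005822.1, which does not overlap it. On the opposite strand HNRNPA2B1 overlaps CBX3 and NFE2L3, and SRSF2 overlaps MFSD11. How reads that match more than 1 gene were assigned, and whether strand was used, is not given in the sources used here. Counts of HNRNPA1, HNRNPA3 and the members with a same-strand partner are therefore uncertain, and HNRNPA1, usually one of the abundant nuclear proteins, had 225 to 543 counts per library.

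The libraries held 10327747 to 13980843 expected counts. Nuclear protein-coding genes took 37.7% of them under the sh control, 42.2% under sh1088, 66.0% under sh1196, 66.3% under pCDH and 62.3% under overexpression. The 32 genes took 0.761% of the nuclear protein-coding counts under the sh control, 0.865% under sh1088, 0.869% under sh1196, 1.10% under pCDH and 1.02% under overexpression. RBMS1 itself stood at 31.0 CPM (counts over the library size scaled by TMM, as in edgeR) under the sh control, 18.3 under sh1088 and 13.4 under sh1196, and at 24.7 under pCDH and 37.0 under overexpression, so that each library moved the way its label says. All 10 A549 epithelial markers were detected in all 5 libraries, with a summed level of 4228 to 7391 CPM on the same scale. Of the markers of other cells, PTPRC and CD3E (immune), DCN (fibroblast), KDR and VWF (endothelial) and SFTPA1 (alveolar type 2) were at 0 in every library, although the 5 immune markers summed to between 28.3 CPM in the sh control and 109 CPM in the pCDH control. The part of that difference in the results was not tested.

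The levels of the 32 genes spanned nearly 3 orders of magnitude per unit of length. Levels between genes were compared as TPM rescaled so that nuclear protein-coding genes alone make up the total, here called coding TPM. HNRNPA2B1, which packages transcripts and takes part in RNA transport, stood first by its mean over the 5 libraries: 714 coding TPM under the sh control, 872 under sh1088, 929 under sh1196, 2330 under pCDH and 1241 under overexpression. It was the leading gene in 4 libraries and the one after HNRNPH1 in sh1196. HNRNPH1, which binds runs of G, had 642, 706, 1010, 1240 and 1153 coding TPM in the same order of libraries.

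HNRNPK, a KH-domain protein that binds C-rich RNA, had 556 coding TPM under the sh control, 574 under sh1088, 492 under sh1196, 263 under pCDH and 502 under overexpression. It was among the 4 leading genes in every library but the pCDH control, where it ranked 15. SRSF3, an SR protein with a single RNA recognition motif that also serves mRNA export, had 377, 575, 471, 469 and 436 coding TPM. HNRNPU, the scaffold attachment factor, varied more: 214 under the sh control, 222 under sh1088, 464 under sh1196, 509 under pCDH and 700 under overexpression. SRSF1 stood at 333, 333, 396, 402 and 302 coding TPM, and its rank was 5 or 6 in all libraries.

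At the other end SRSF12, an SR protein known from splicing repression, had a mean of 1.29 coding TPM, from 8 to 22 counts per library. SRSF8, a human paralog of SRSF2, came next with a mean of 10.9 coding TPM. Its rank was 31 in all 5 libraries. HNRNPA0 and HNRNPUL2, both with long annotated transcripts, had means of 23.8 and 26.1 coding TPM.

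**Figure D1:**
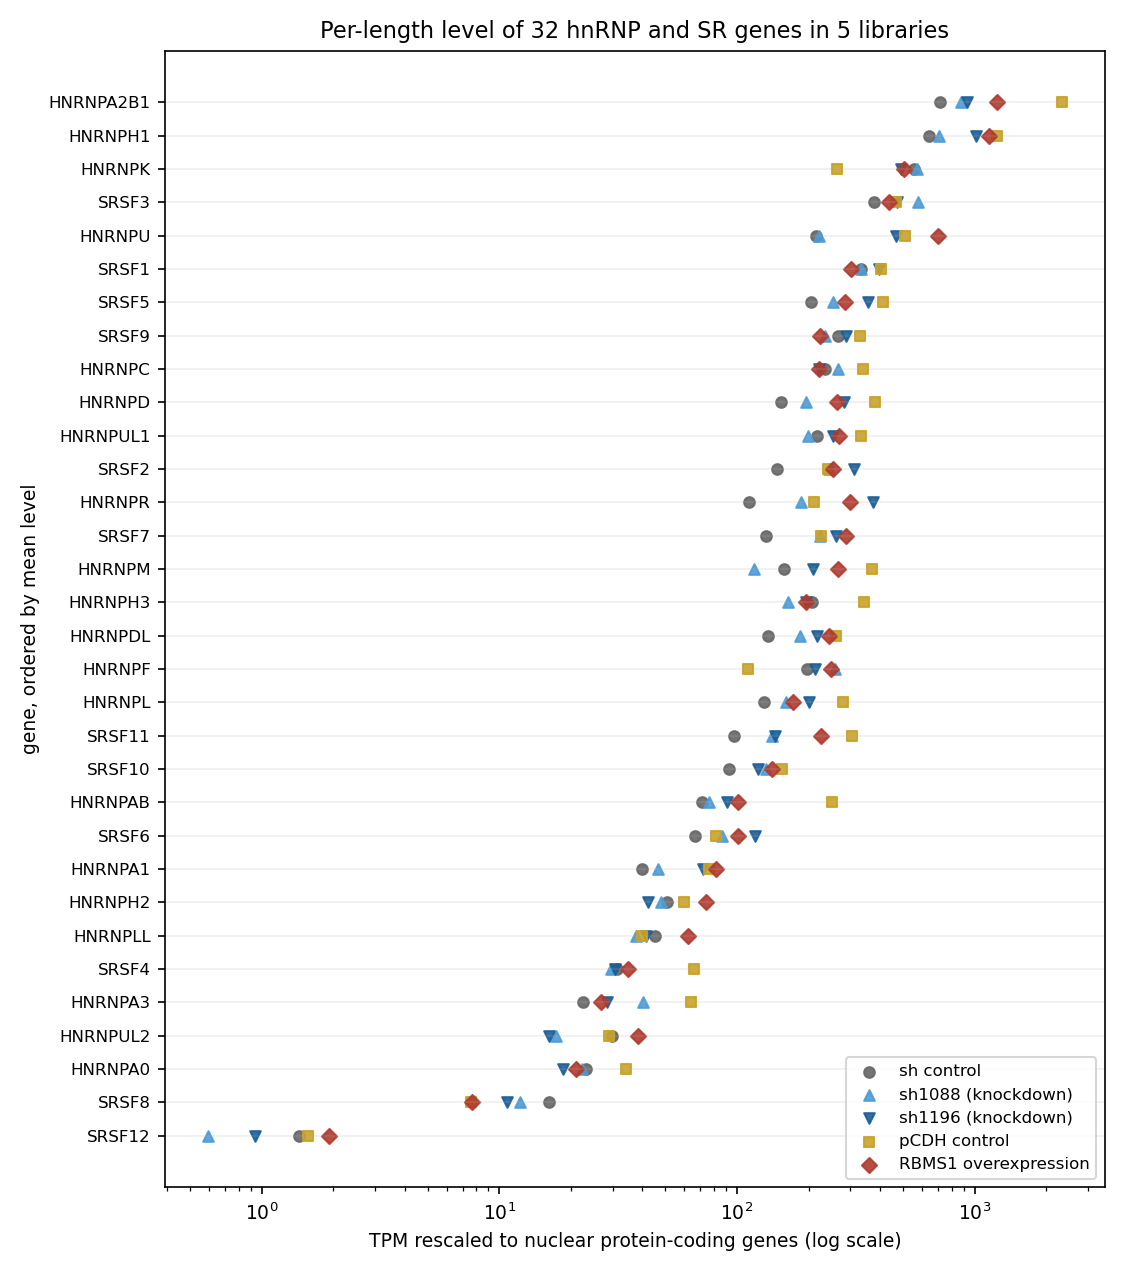
Coding TPM (log axis) of the 32 genes in each library, ordered by their mean. Each point is 1 library, so there are no error bars. HNRNPA2B1 and HNRNPH1 lead in all 5 libraries, SRSF8 and SRSF12 are last, and the pCDH control lies far from the other libraries for HNRNPA2B1, HNRNPAB, HNRNPK and HNRNPF.

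In several of the pairs of genes compared, the pCDH control stood apart from the other libraries. Not all pairs are given, and no background over other gene pairs was computed. Ratios between 2 genes of 1 library do not depend on how libraries are scaled. HNRNPA2B1 had 2.31 counts per HNRNPK count under the sh control, 2.87 under sh1088, 3.17 under sh1196, 11.1 under pCDH (95% counting interval 10.7 to 11.6) and 4.31 under overexpression (4.14 to 4.50). Per SRSF1 count it had 2.26, 2.43, 2.81, 8.32 and 2.55 in the same order. For both ratios the pCDH control lay well outside the range of the other 4 libraries.

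Among SR proteins the same library differed in other pairs. SRSF1 had 1.39 counts per count of SRSF9, its closest relative in the family, in the pCDH control, against 2.69 under the sh control, 3.94 under sh1088, 2.95 under sh1196 and 4.94 under overexpression. SRSF5 and SRSF6, SR proteins with a pair of RNA recognition motifs each, had a ratio of 1.94 in the pCDH control and of 0.804 to 1.10 elsewhere. SRSF3 per SRSF7, the partners in mRNA export, went another way. This ratio was 1.84 under the sh control, 1.60 under sh1088, 1.24 under sh1196, 1.27 under pCDH and 1.13 under overexpression. Here the sh control was the extreme one. SRSF2 per SRSF8 was 3.34 under the sh control and 6.17 to 12.0 elsewhere. In some hnRNP pairs sh1196 was the extreme one. HNRNPH1 per HNRNPH2 was 6.80 there and 4.03 to 5.20 elsewhere. HNRNPUL1 per HNRNPUL2 was 4.46 there and 2.25 to 3.55 elsewhere.

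SRSF genes took 25.4% of the counts of the 32 genes under the sh control, 28.5% under sh1088, 28.0% under sh1196, 20.1% under pCDH and 25.03% under overexpression. HNRNPA2B1 alone took 15.5%, 17.3%, 16.1%, 26.0% and 17.9%. Without HNRNPA2B1 in the sum, a choice made after the values were seen, the SR share was 30.03%, 34.5%, 33.3%, 27.2% and 30.5%. The order of the libraries was then as before except that the overexpression library lay above the sh control. SRSF2, SRSF3 and SRSF7 together took 7.57% of the counts under the sh control, 10.6% under sh1088, 11.2% under sh1196, 7.32% under pCDH and 8.28% under overexpression.

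**Figure D2:**
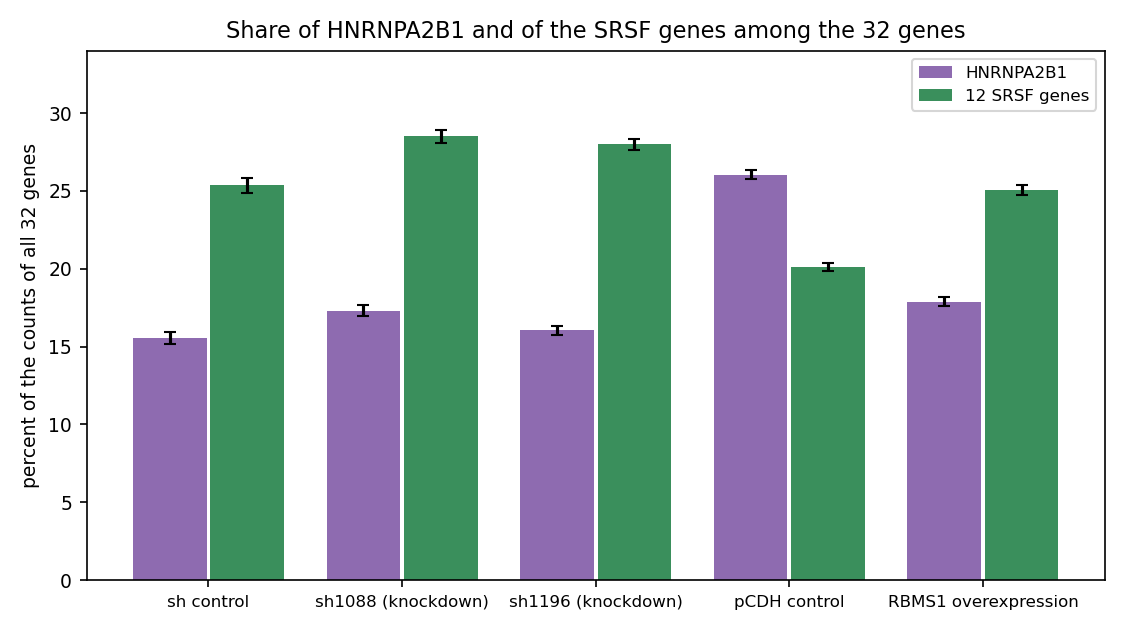
Share of HNRNPA2B1 (purple) and of the 12 SRSF genes (green) in the summed counts of the 32 genes, in percent from 0, with 95% Wilson counting intervals. HNRNPA2B1 takes 26.0% in the pCDH control and 15.5% to 17.9% elsewhere, and the SRSF genes take 20.1% in the pCDH control and 25.03% to 28.5% elsewhere.

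The 2 controls, which share no vector name, were also set against each other, a comparison added after the data were seen. Of the 31 genes with a mean of at least 5 CPM, 3 were at least 2-fold higher in the pCDH control than in the sh control, beside 17.3% of 10429 genes: HNRNPAB (log2 ratio 1.81), HNRNPA2B1 (1.25) and HNRNPD (1.11). SRSF8 (-1.25) and HNRNPK (-1.02) were at least 2-fold lower, beside 18.7% of all genes. The median log2 ratio was 0.34 over the 31 genes and -0.01 over all genes. By scaled CPM, 16 of the 31 genes had their highest value in the pCDH control (51.6%, beside 29.1% of 10562 genes) and 11 their lowest in the sh control (35.5%, beside 22.1%). Each arm below was compared with its own control. Against the other control the sign of the estimate turned for 13 of the 32 genes on knockdown (40.6%, beside 50.4% of all genes) and for 13 of the 31 on overexpression (41.9%, beside 43.5%).

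In the knockdown comparison the question was whether the lower RBMS1 level went with a change in the counts of hnRNP and SR genes. None of the 32 passed the test of the 2 knockdown libraries against the sh control (edgeR's quasi-likelihood test, adjusted p under 0.05), where the background was 0% of 14913 genes. DESeq2 called 0.114% of all genes and limma-voom 0%, with 0 of the 32 by either. At an unadjusted p under 0.05, edgeR had 0 of the 32 higher and 0 lower, beside 3.27% and 2.61% of all genes. The fit has 1 residual degree of freedom, and its standard errors leave the changes below undetectable at this replication. RBMS1 itself, with a fitted log2 change of -0.93 ± 0.45 (SE), was not called either.

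The 2 highest estimates were those of SRSF7 and SRSF2. SRSF7, a zinc-knuckle SR protein (chr2:38743599-38751494 in GENCODE release 29, minus strand), had 73.3 scaled CPM under the sh control, 123 under sh1088, 138 under sh1196, 119 under pCDH and 145 under overexpression. The sh control was thus the low library and the other 4 lay together. The log2 fold change on knockdown was 0.86 with a standard error of 0.50 (edgeR adjusted p = 0.828, n = 2 against 1), from 0.78 for sh1088 and 0.93 for sh1196.

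SRSF2, the factor known as SC35, had 107 scaled CPM under the sh control, 155 under sh1088, 209 under sh1196, 159 under pCDH and 156 under overexpression. The fitted change on the log2 scale was 0.80 ± 0.52 (SE, edgeR adjusted p = 0.828), from 0.58 for sh1088 (95% counting interval 0.46 to 0.70) and 0.995 for sh1196 (0.88 to 1.11), which do not overlap. SRSF3 had 135, 196, 170, 150 and 163 scaled CPM in the same order, and a fitted change of 0.48 ± 0.51 (SE, edgeR adjusted p = 0.875), from 0.58 for sh1088 and 0.37 for sh1196. Both genes shared the pattern of SRSF7 in that the sh control was the lowest of the 5 libraries. That library also had the lowest share of counts on nuclear protein-coding genes (37.7%), and the part of this was not tested.

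Among hnRNP genes the larger positive estimates were those of HNRNPR and HNRNPDL. HNRNPR, which resembles the mRNA-binding protein SYNCRIP, had 95.9 scaled CPM under the sh control, 120 under sh1088, 170 under sh1196, 158 under pCDH and 174 under overexpression. The log2 ratio to the sh control was 0.37 for sh1088 and 0.85 for sh1196, with a fitted change of 0.63 ± 0.52 (SE, edgeR adjusted p = 0.858). HNRNPDL, a paralog of the AU-rich element binder HNRNPD, had 98.9, 129, 144, 169 and 157 scaled CPM and a fitted change of 0.50 ± 0.49 (SE, edgeR adjusted p = 0.870). Set against the pCDH control instead, both signs turned, to -0.11 for HNRNPR and -0.29 for HNRNPDL.

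The lowest estimate was that of HNRNPUL2 (chr11:62712630-62727472, minus strand), at 81.6 scaled CPM under the sh control, 46.2 under sh1088, 42.3 under sh1196, 73.4 under pCDH and 94.9 under overexpression. Both knockdown libraries lay below the other 3, and the fitted change was -0.85 ± 0.44 (SE, edgeR adjusted p = 0.828). The readthrough gene HNRNPUL2-BSCL2, which shares its exons, was at 297 counts under the sh control, 625 under sh1088, 1699 under sh1196, 2578 under pCDH and 1633 under overexpression, beside 655, 444, 546, 1280 and 1127 for HNRNPUL2. With the counts of both genes added, the log2 ratio to the sh control became -0.05 for sh1088 and 0.58 for sh1196, from -0.78 and -0.92 for HNRNPUL2 alone.

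The other low estimates were smaller. SRSF8 had 31.9 scaled CPM under the sh control, 25.2 under sh1088, 21.6 under sh1196, 13.3 under pCDH and 14.7 under overexpression, with a fitted change of -0.42 ± 0.44 (SE, edgeR adjusted p = 0.874). HNRNPC, which forms tetramers on nascent RNA and binds runs of U, had 140, 119, 93.1, 158 and 93.3 scaled CPM and a fitted change of -0.37 ± 0.48 (SE, edgeR adjusted p = 0.902). In both genes the sh control was above both hairpins, but SRSF8 was lower still in the pCDH control. HNRNPLL, a paralog of HNRNPL known from lymphocyte splicing, had 47.2, 35.99, 38.7, 39.8 and 58.3 scaled CPM and a fitted change of -0.30 ± 0.43 (SE, edgeR adjusted p = 0.910). SRSF9 had 106, 80.4, 89.2, 132 and 79.5 scaled CPM and a fitted change of -0.29 ± 0.47 (SE, edgeR adjusted p = 0.922).

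By sign, 14 of the 32 genes lay above the sh control in both hairpin libraries (43.8%, beside 36.7% of all genes) and 11 lay below it in both (34.4%, beside 34.3%). The first count held 7 of the 20 hnRNP genes and 7 of the 12 SR genes, the second 9 hnRNP genes and 2 SR genes. Both 95% counting intervals lay above 0 for 10 genes (31.2%, beside 15.3% of all genes): HNRNPA2B1, HNRNPD, HNRNPDL, HNRNPR, SRSF2, SRSF3, SRSF5, SRSF6, SRSF7 and SRSF11. Both lay below 0 for 6 genes (18.8%, beside 17.3%): HNRNPC, HNRNPH3, HNRNPLL, HNRNPUL2, SRSF8 and SRSF9. These intervals hold counting error only, and both hairpins share the 1 control library. They narrow as counts rise, and all genes were not matched to the 32 by count, so shares based on intervals are not like for like. The intervals of the hairpins did not overlap each other for 13 genes (40.6%, beside 28.7% of all genes): HNRNPA0, HNRNPC, HNRNPD, HNRNPF, HNRNPH1, HNRNPH3, HNRNPK, HNRNPL, HNRNPM, HNRNPR, HNRNPU, SRSF1 and SRSF2.

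Against the pCDH control 6 of the 10 genes with both intervals above 0 turned, HNRNPA2B1 to -0.998, HNRNPD to -0.79, SRSF11 to -0.60 and SRSF5 to -0.27, beside HNRNPDL and HNRNPR. SRSF2, SRSF3, SRSF6 and SRSF7 kept their sign, at 0.21, 0.30, 0.59 and 0.15. Of the other genes HNRNPAB turned from 0.25 to -1.57, HNRNPM from 0.15 to -0.82, HNRNPL from 0.20 to -0.73, HNRNPU from 0.12 to -0.50 and HNRNPA3 from 0.15 to -0.38. HNRNPK and SRSF8 turned the other way, from -0.12 to 0.89 and from -0.42 to 0.83.

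The median log2 fold change was 0.24 over the 12 SR genes and 0.13 over the 20 hnRNP genes. It was 0.13 over all 32, beside 0.07 over all genes tested. Per hairpin the 32 had a median of 0.11 in sh1088 and 0.02 in sh1196, beside 0.005 and 0.05 over all genes. The hnRNP genes had -0.03 in sh1088 and -0.01 in sh1196, so their positive fitted median was seen in neither hairpin library. The SR genes had 0.24 and 0.19.

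**Figure D3:**
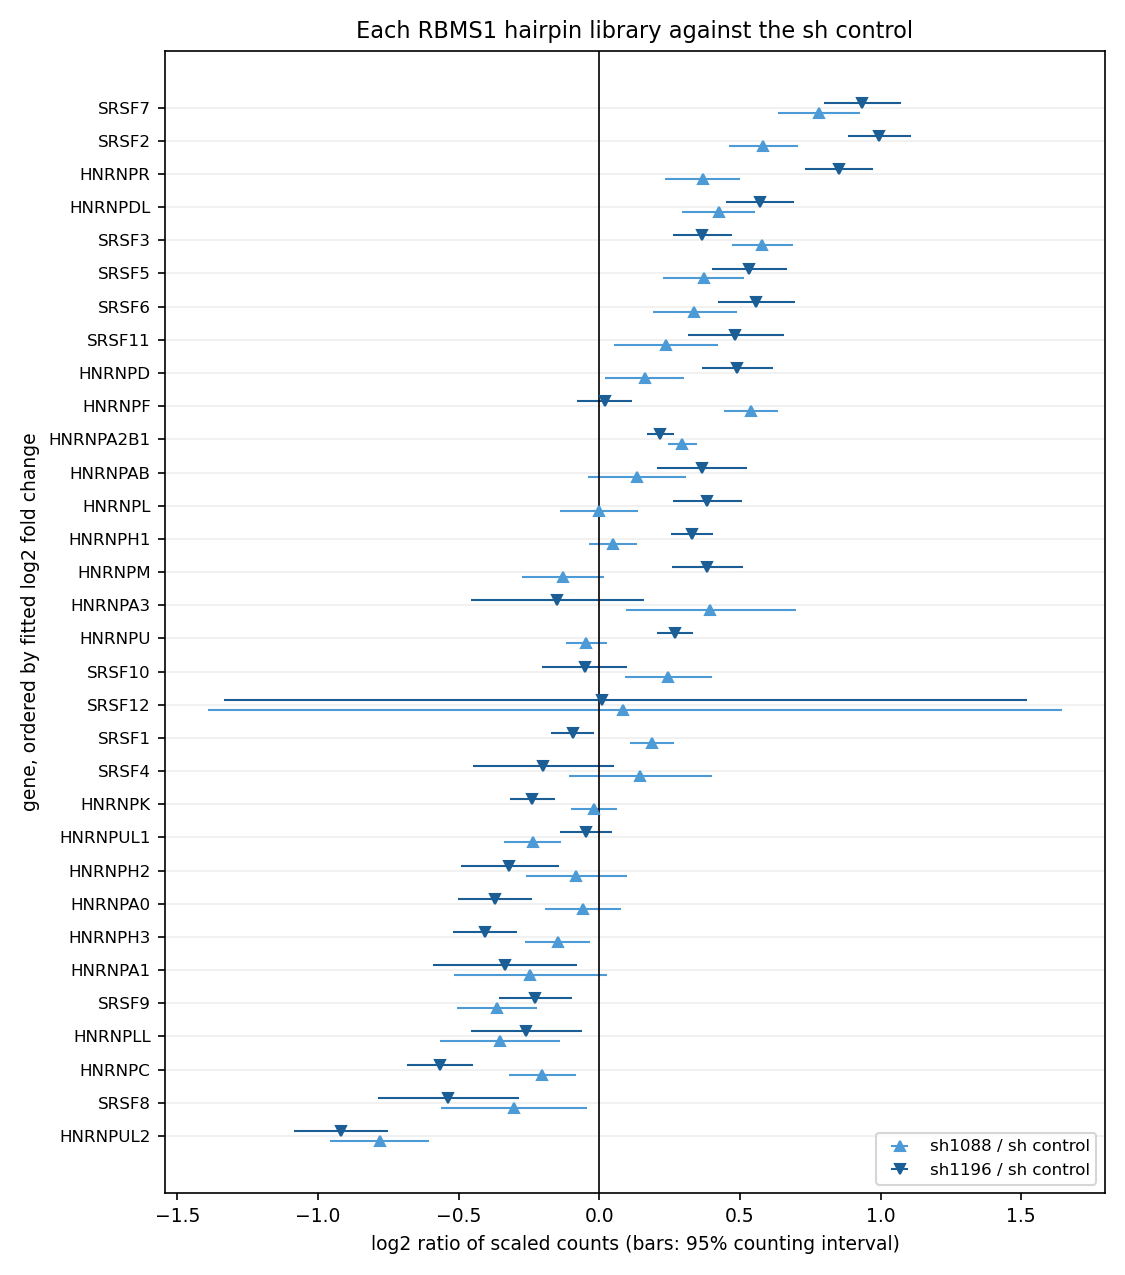
Log2 ratio of scaled counts of each hairpin library to the sh control for the 32 genes, ordered by the fitted change, with 95% counting intervals (counting error only). The SRSF2, SRSF3, SRSF5, SRSF6, SRSF7 and SRSF11 intervals lie above 0 for both hairpins, and those of HNRNPUL2, SRSF8 and SRSF9 below 0, while the intervals of the hairpins do not overlap for 13 genes, HNRNPF and SRSF2 among them.

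The authors' deposited table of knockdown against control placed 0 of the 32 in its class of higher genes (1.12% of all genes listed there) and 0 in its class of lower genes (1.17%).

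In the overexpression comparison 1 library was set against 1, so ratios carry a counting interval and no p-value. Of the 31 genes with a mean of at least 5 CPM (SRSF12 was below it), 2 were at least 2-fold higher than in the pCDH control (6.45%, beside 14.9% of 10837 genes) and 1 was at least 2-fold lower (3.23%, beside 13.9%). The interval lay above 0 for 13 genes (41.9%, beside 42.4% of all genes) and below 0 for 14 (45.2%, beside 37.4%), again with no matching by count. The median log2 ratio was -0.14 over 20 hnRNP genes, 0.13 over 11 SR genes and -0.06 over the 31, beside 0.06 over all genes. Against the sh control instead, 0 genes were at least 2-fold higher and 1, SRSF8 with a log2 ratio of -1.14, was at least 2-fold lower. The sign turned against the sh control for HNRNPDL (-0.09 to 0.65), HNRNPL (-0.53 to 0.35), HNRNPM (-0.27 to 0.64), HNRNPUL1 (-0.16 to 0.08), SRSF2 (-0.016 to 0.53), SRSF8 (0.15 to -1.14) and SRSF11 (-0.06 to 0.86), and for 6 genes whose values follow.

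SRSF1 (chr17:58003360-58007346, minus strand) was the higher gene by most. It had 286 scaled CPM under the sh control, 317 under sh1088, 263 under sh1196, 183 under pCDH and 393 under overexpression, with a log2 ratio of 1.11 to the pCDH control (95% counting interval 1.05 to 1.18) and of 0.44 to the sh control. The pCDH control was the low library and the overexpression library the high one. Adding the counts of AC015813.2, at 93 under pCDH and 0 under overexpression, left the ratio at 1.07. Per unit of length the direction turned: SRSF1 had 402 coding TPM under pCDH and 302 under overexpression, as its weighted transcript length was 973 nt in the former and 2759 nt in the latter.

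HNRNPF, a G-tract binder like HNRNPH1, lies at chr10:43385617-43409166 on the minus strand and had 173 scaled CPM under the sh control, 245 under sh1088, 172 under sh1196, 108 under pCDH and 220 under overexpression. Its log2 ratio was 1.04 (interval 0.95 to 1.12) against the pCDH control and 0.33 against the sh control. HNRNPK showed the same low pCDH control, with 280, 269, 233, 137 and 233 scaled CPM, and its ratio turned from 0.78 against the pCDH control to -0.29 against the sh control. Both genes thus had their lowest value of the 5 libraries in the control they were compared with.

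SRSF10, an SR protein that represses splicing when it loses its phosphates, had 74.2 scaled CPM under the sh control, 85.6 under sh1088, 70.2 under sh1196, 61.8 under pCDH and 110 under overexpression. SRSF6 had 77.1, 94.9, 111, 69.5 and 119 scaled CPM in the same order. Their log2 ratios were 0.84 and 0.79 against the pCDH control and 0.54 and 0.60 against the sh control, so that the overexpression library was above both controls for these 2 genes.

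HNRNPAB, a relative of HNRNPD, lies at chr5:178204507-178211163 on the plus strand and was the lower gene by most: 60.4 scaled CPM under the sh control, 64.5 under sh1088, 76.3 under sh1196, 211 under pCDH and 82.4 under overexpression. The 4 libraries other than the pCDH control lay within 60.4 to 82.4. The log2 ratio was -1.35 (interval -1.45 to -1.24) against the pCDH control and 0.42 against the sh control. HNRNPA2B1 had 646, 771, 737, 1523 and 1003 scaled CPM, and its ratio likewise turned from -0.59 to 0.61.

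HNRNPC, whose values are given above, had a ratio of -0.75 against the pCDH control and of -0.61 against the sh control. HNRNPA0, an intronless member of the A/B group, had 106 scaled CPM under the sh control, 99.2 under sh1088, 80.6 under sh1196, 147 under pCDH and 87.0 under overexpression. Its ratios were -0.74 and -0.31, and those of SRSF9 were -0.72 and -0.44. For these 3 genes the overexpression library was below both controls. SRSF4, at 28.4, 30.6, 24.3, 50.6 and 31.0 scaled CPM, went from -0.70 against the pCDH control to 0.10 against the sh control.

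**Figure D4:**
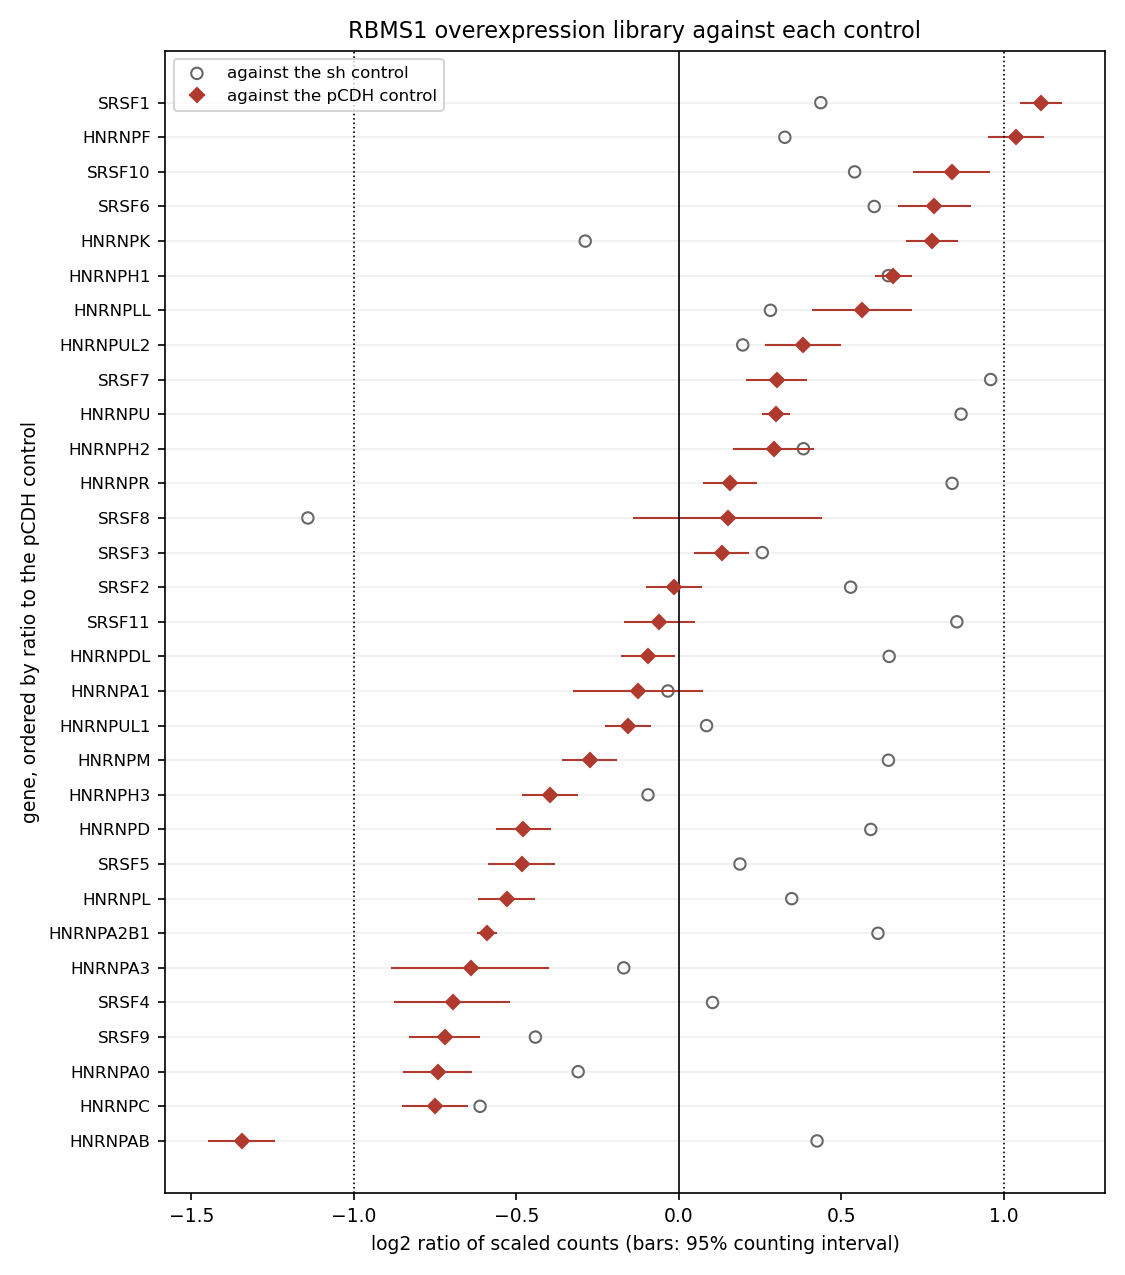
Log2 ratio of scaled counts of the RBMS1 overexpression library to the pCDH control (diamonds, with 95% counting intervals) and to the sh control (open circles) for 31 genes, with dotted lines at 2-fold. SRSF1, HNRNPF and HNRNPAB lie past 2-fold against the pCDH control, and none of these 3 does against the sh control.

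Across all genes the overexpression ratio moved with the GC content of the transcript, with a Spearman rho of -0.59 over 10332 coding genes and of -0.15 over the 31 genes (a description, since genes of 1 pair of libraries share depth and preparation). Of the 31 genes, 19 had 40 to 45% GC, where the median log2 ratio was -0.06 for them and 0.54 for all 2443 genes of that range. With the GC trend taken out, the ratio was 0.87 for SRSF1, 0.89 for HNRNPF and -1.12 for HNRNPAB. Of the 31 genes 7 were then at least 2-fold lower and 0 at least 2-fold higher. The same counts over all genes are not given here, so the 7 cannot be set against a background. The median was then -0.44 over the 31 genes and 0.01 over 10825 genes. The part of GC content in the results was not tested.

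The authors' deposited table of overexpression against control placed HNRNPF, SRSF1, SRSF6 and SRSF10 in its class of higher genes (4 of 32, 12.5%, beside 10.3% of the genes listed there) and HNRNPA0, HNRNPA2B1, HNRNPAB, HNRNPL and SRSF9 in its class of lower genes (5 of 32, 15.6%, beside 8.79%).

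HNRNPL, which binds CA repeats, changed its ratio once the neighbouring gene was added. It had 3268 counts under pCDH and 1528 under overexpression, while AC008982.1 had 53 and 919. The log2 ratio was -0.53 for HNRNPL alone and 0.13 for both together (interval 0.05 to 0.20). HNRNPH2, which overlaps RPL36A-HNRNPH2, was untouched by this: the overlapping gene had 0 counts in both libraries of the arm.

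A combined fit placed all 5 libraries on 1 scale of RBMS1 level, coded -1 for knockdown, 0 for either control and 1 for overexpression, and held a further term for the vector. None of the 32 genes passed it (edgeR's quasi-likelihood test, adjusted p under 0.05), beside 0.00632% of 15827 genes. DESeq2 called 0.348% of all genes and limma-voom called 0, with 0 of the 32 by either, and at an unadjusted p under 0.05 edgeR had 0 of the 32 in each direction beside 3.34% and 3.27% of all genes.

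The largest positive estimates per step of RBMS1 level were 0.66 ± 0.37 (SE) for HNRNPUL2, whose counts depend on its readthrough gene, 0.47 ± 0.45 for SRSF1, 0.44 ± 1.00 for SRSF12, 0.43 ± 0.36 for HNRNPLL and 0.42 ± 0.41 for HNRNPK. SRSF12 had 8 counts under the sh control, 10 under sh1088, 13 under sh1196, 16 under pCDH and 22 under overexpression, too few to place it. HNRNPLL had both hairpins below and the overexpression library above their own controls.

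The largest negative estimates were -0.69 ± 0.42 (SE) for HNRNPAB, -0.45 ± 0.38 for SRSF5, -0.45 ± 0.42 for SRSF2, -0.38 ± 0.45 for HNRNPA2B1 and -0.38 ± 0.39 for HNRNPD. SRSF5 had 82.6 scaled CPM under the sh control, 104 under sh1088, 117 under sh1196, 135 under pCDH and 95.5 under overexpression. HNRNPD, also named AUF1, had 92.5, 101, 128, 199 and 141 scaled CPM. In both, the hairpin libraries were above the sh control and the overexpression library was below the pCDH control. Against the other control both arms turned: the knockdown estimate was -0.27 for SRSF5 and -0.79 for HNRNPD, and the overexpression ratio 0.19 and 0.59. Without the term for the vector system the signs of HNRNPAB, HNRNPA2B1, HNRNPD and HNRNPK turned, to 0.27, 0.26, 0.19 and -0.08. The median estimate was -0.09 over the 32 genes and 0.02 over all genes.

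RSEM computes the weighted transcript length from the abundance of a gene's isoforms. This length gives a view of isoform use, and the symbol rule did not draw on it. Among the 31 genes with at least 50 counts in every library, the median ratio of the longest to the shortest value over libraries was 1.28, beside 1.45 over 8748 coding genes. A range of at least 2-fold was seen for 2 of the 31 (6.45%), SRSF1 and HNRNPA1, beside 18.4% of those coding genes. As the fragments were short and, if footprints, mostly lie on coding sequence shared by isoforms, this length is an estimate with an unknown error.

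SRSF1 had a weighted length of 1663 nt under the sh control, 1893 nt under sh1088, 1363 nt under sh1196, 973 nt under pCDH and 2759 nt under overexpression. SRSF10 followed the same order of controls and overexpression, with 1557, 1292, 1184, 863 and 1671 nt. Both genes had their longest value in the overexpression library and their shortest in the pCDH control. HNRNPU, by contrast, was longest under the sh control at 3287 nt, with 3079 nt under sh1088, 1910 nt under sh1196, 2277 nt under pCDH and 2082 nt under overexpression. HNRNPR had 1654 nt under the sh control, 1298 nt under sh1088 and 952 nt under sh1196, beside 1570 nt under pCDH and 1260 nt under overexpression.

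SRSF7, whose count estimate on knockdown was the highest, kept its length within 1089 to 1112 nt. Over the 31 genes, 17 were shorter than the sh control in both hairpin libraries (54.8%, beside 50.5% of the coding genes), and 18 were longer in the overexpression library than in the pCDH control (58.1%, beside 59.3%). These shares were close to those of other coding genes.

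**Figure D5:**
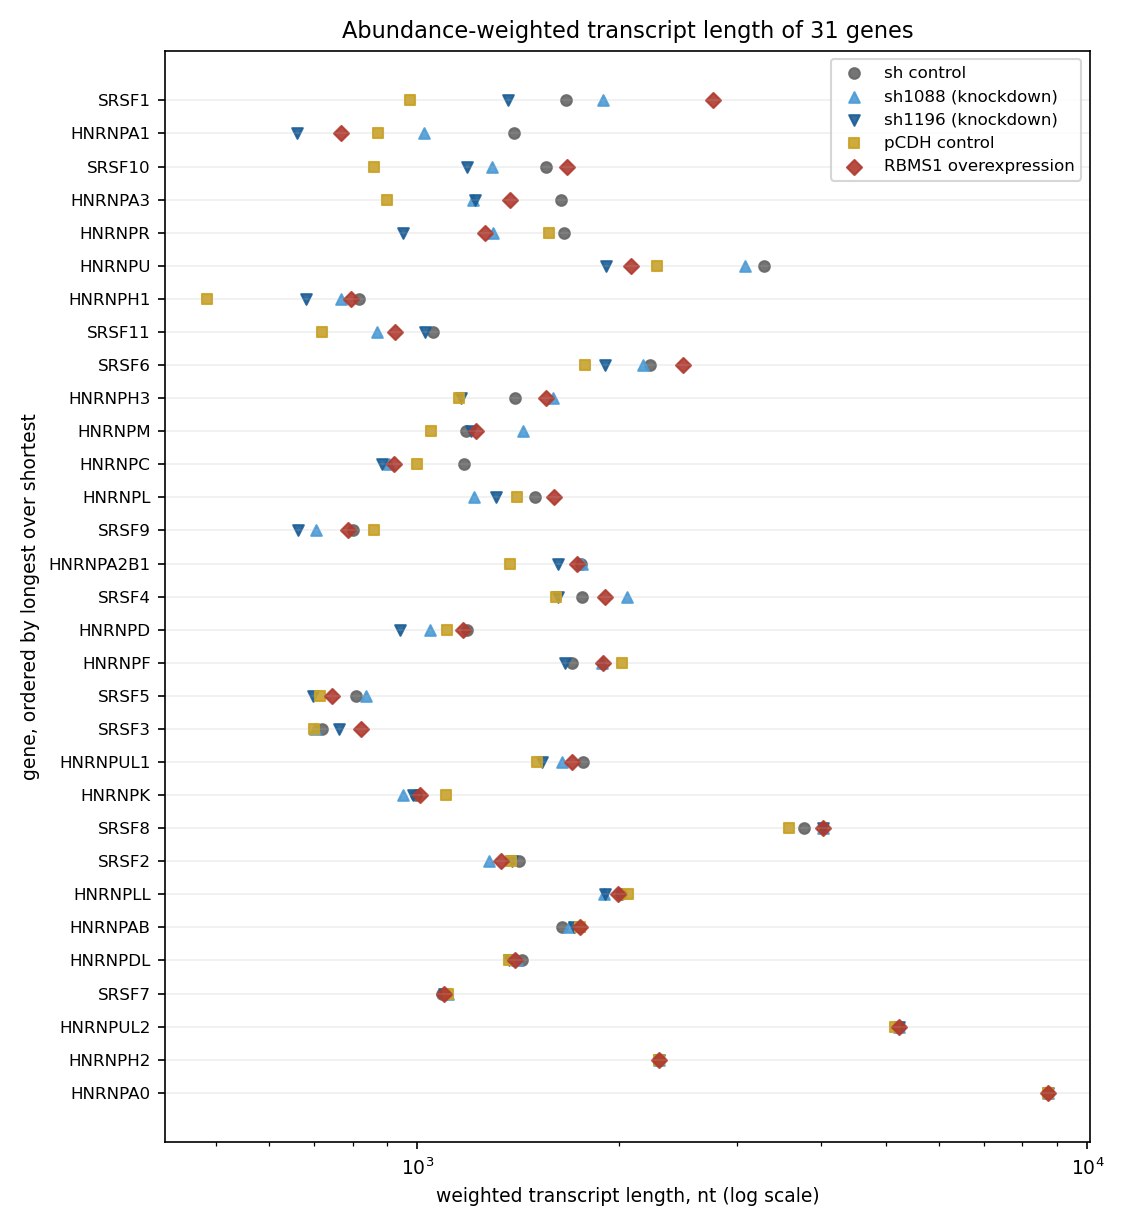
Weighted transcript length in nt (log axis) of 31 genes in each library, ordered by the ratio of longest to shortest, with SRSF12 left out for its low counts. SRSF1 runs from 973 nt in the pCDH control to 2759 nt in the overexpression library, while SRSF7 stays within 1089 to 1112 nt. HNRNPH2 and HNRNPA0 have 1 annotated transcript each, so that their length is fixed.

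The annotation lists unproductive isoforms for many genes of these families, without saying how much of each is made. In GENCODE release 29, 25 of the 32 genes (78.1%) have a transcript typed as a nonsense-mediated decay target, beside 46.4% of 8822 coding genes with at least 500 counts over the 5 libraries. All 12 SR genes have one, and 13 of the 20 hnRNP genes (65.0%). A retained-intron transcript is annotated for 71.9% of the 32, beside 61.9%. The 32 genes also have more annotated transcripts of any type, a median of 11 beside 8. That median was 11.5 over the hnRNP genes and 8.5 over the SR genes. The part of transcript number in these shares was not tested.

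The promoters were read from RefSeq (GRCh38.p14) as the 250 bases before each gene's start, with 30 of the 32 genes matched. They are given for SRSF3 and SRSF7, which stood above the sh control in both hairpin libraries, because these partners in export differ in the elements they hold. In capitals are matches on either strand to CCAAT (whose reverse complement is ATTGG), to GGGCGG (reverse complement CCGCCC), to TATAAA (reverse complement TTTATA) and to CACGTG (its own reverse complement), which do not overlap one another here. SRSF3 is on the plus strand at chr6:36594112-36594361 and SRSF7 on the minus strand at chr2:38751495-38751744.
SRSF3: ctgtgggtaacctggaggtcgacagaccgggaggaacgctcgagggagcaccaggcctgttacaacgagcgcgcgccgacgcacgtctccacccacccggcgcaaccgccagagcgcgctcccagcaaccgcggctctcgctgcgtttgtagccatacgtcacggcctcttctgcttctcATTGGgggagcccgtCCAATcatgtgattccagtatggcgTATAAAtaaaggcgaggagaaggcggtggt
SRSF7: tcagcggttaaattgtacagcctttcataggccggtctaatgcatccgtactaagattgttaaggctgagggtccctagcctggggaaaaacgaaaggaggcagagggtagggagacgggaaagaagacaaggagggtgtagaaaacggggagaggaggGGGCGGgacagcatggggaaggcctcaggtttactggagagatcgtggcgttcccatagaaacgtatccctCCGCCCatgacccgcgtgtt
SRSF3 holds 2 CCAAT matches and 1 TATAAA match, and SRSF7 holds 2 GGGCGG matches. Over the 30 genes CCAAT was found in 15 (50.0%, beside 33.0% of 27305 promoters of the same length), GGGCGG in 19 (63.3%, beside 42.3%), TATAAA in 5 (16.7%, beside 11.1%) and CACGTG in 6 (20.0%, beside 6.49%). A match is a description of these letters and not of a bound factor.

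A start of C followed by at least 4 further pyrimidines, the form that begins mRNAs of the translation machinery, was found in 2 of the 30 genes (beside 4.04% of promoters): HNRNPA0 and SRSF9. Both are shown from 10 bases before to 15 bases after the start, with the pyrimidine run from the first transcribed base in capitals.
HNRNPA0: gttcagcggcCTCTTTgtgtggtgc
SRSF9: ctccgccgacCCCTTCgcttccgct
Both genes had a log2 ratio below 0 in the overexpression library (-0.74 and -0.72), where the interval lay below 0 for 45.2% of the 31 genes and 37.4% of all genes. They also lay below the sh control in both hairpin libraries, as did 34.4% of the 32 genes and 34.3% of all genes. For sh1088 the interval of HNRNPA0 included 0. Both genes were thus lower in both arms, in which RBMS1 moved in opposite directions. How many of all genes were lower in both arms at once was not counted. The part of the start sequence was not tested.

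Other splicing and decay genes were counted from lists fixed with earlier results of these data known. The list of other splicing regulators holds RBMS1 itself, whose knockdown estimate was -0.93 ± 0.45 on the log2 scale (SE). On knockdown 0 of 54 core spliceosome genes, 0 of 19 SR-related genes, 0 of 28 other splicing regulators, 0 of 14 SR kinases, phosphatases and import receptors, 0 of 15 nonsense-mediated decay genes and 0 of 10 further hnRNP-type genes passed edgeR's test, beside the 0% background. Among SR-related genes 2 (10.5%, beside 3.27% of all genes) had an unadjusted p under 0.05 in the higher direction: PNN (pinin), whose knockdown estimate was 1.60 ± 0.52 on the log2 scale (SE, adjusted p = 0.828 by edgeR), and LUC7L3, a relative of the U1-associated protein Luc7, with 1.40 ± 0.50 (SE, edgeR adjusted p = 0.828). In the overexpression library the log2 ratio to the pCDH control was -0.66 for PNN and 0.21 for LUC7L3. Among the other regulators TIA1, which binds U-rich introns, had an estimate of 1.25 ± 0.51 on knockdown (SE, adjusted p = 0.828 by edgeR).

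Among decay genes RBM8A, the Y14 subunit of the exon junction complex, had a knockdown estimate of -1.76 ± 0.50 on the log2 scale (SE, adjusted p = 0.828 by edgeR) and a ratio of 0.41 on overexpression. The median on knockdown was 0.15 over the SR-related genes, 0.09 over the core spliceosome, 0.06 over the kinases and import receptors, 0.05 over the decay genes, 0.08 over the other regulators and 0.08 over the further hnRNP-type genes. On overexpression the kinases, phosphatases and import receptors had a median log2 ratio of 0.43 and the decay genes of 0.33, beside 0.06 over all genes, with 2 genes of each list at least 2-fold higher (14.3% and 13.3%, beside 14.9% of all genes).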

How the data were processed

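Expected counts per gene were made with RSEM by the authors, per the file headers, and were deposited beside TPM and FPKM and an isoform-weighted gene length (a unit in nt), also by the authors. Tools listed in the submitters' processing notes, without their roles, are RSEM 1.3.1, STAR 2.4.2, Bowtie and DESeq2. Neither the genome build nor the annotation is given in the sources used here. Comparison tables deposited by the authors hold a mean normalised signal, a log2 fold change, a test score, p-values and a class per gene.

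Expected counts were rounded and fitted over the whole table, with only the 32 genes printed. Knockdown and the combined fit used edgeR 4.0.16 (quasi-likelihood, robust, TMM, filterByExpr, Benjamini-Hochberg, 0.05) in R 4.3.3, with 1 and 2 residual degrees of freedom; a group of 1 library takes its spread from the others. Overexpression ratios used TMM-scaled counts, a prior count of 0.5, a minimum mean CPM of 5 and exact conditional 95% intervals. Scaled CPM use 1 set of TMM factors over the 5 libraries and ratios those of their own comparison, so that the 2 can differ slightly. DESeq2 1.42.0 and limma-voom (limma 3.58.1) were alternatives, beside other scalings, filters and controls. Fits were tested on simulated data. PCR copies are not independent molecules, so intervals cover counting error only.

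The genes and lists were chosen with earlier results of these data known. Values in every library are given for the 6 genes with the highest mean FPKM and, per comparison, for the 5 highest and 5 lowest estimates; other lists give counts, medians and at most 3 genes by knockdown p. Of 58929 identifiers, 58656 matched GENCODE release 29, all 32 genes among them. Protein sequences were not used here.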

Additional observations from a re-analysis of the deposited data

How the results depend on the processing

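No paired analysis was possible because the labels give no replicate numbers that the groups share. Library size in place of TMM moved the median of all genes tested from 0.07 to 0.61 on knockdown and that of the 32 from 0.13 to 0.67. The knockdown median of the 32 was -0.36 against the pCDH control, 1.35 by TPM (all genes 0.84), and between -0.016 and 0.14 with either hairpin left out. The combined-fit median moved from -0.09 to -0.49 by library size (all genes -0.37) and to 0.16 with no vector term. The overexpression median moved from -0.06 to -0.21 by library size, -0.84 by TPM, -0.31 by FPKM, 0.35 against the sh control and -0.44 with the GC trend taken out. The 2 genes at least 2-fold higher on overexpression became 0 by library size, TPM, FPKM, the sh control and the GC trend. The 1 lower gene became 15 by TPM, 4 by FPKM and 7 with the GC trend out. The median of all genes was -0.72 by TPM, -0.26 by FPKM and 0.01 with the GC trend out. Counts over all genes at the 2-fold limit are not given for these settings, so these member counts have no background. The cause of these moves was not tested.

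Against the pCDH control the knockdown estimate turned sign for 13 of the 32 genes: HNRNPA2B1 (-0.998), HNRNPK (0.89), HNRNPU (-0.50), HNRNPR (-0.11), HNRNPDL (-0.29), SRSF8 (0.83), HNRNPAB (-1.57), HNRNPD (-0.79), HNRNPL (-0.73), HNRNPM (-0.82), HNRNPA3 (-0.38), SRSF5 (-0.27) and SRSF11 (-0.60). By library size, among the genes with the 6 highest levels or the 5 highest or lowest estimates, it turned for HNRNPK (0.40), SRSF8 (0.11), HNRNPC (0.14), HNRNPLL (0.25) and SRSF9 (0.27), all below the shifted median of all genes, and the combined fit turned for HNRNPH1 (-0.21) and HNRNPU (-0.33). With no vector term it turned for HNRNPA2B1 (0.26), HNRNPK (-0.083), HNRNPAB (0.27) and HNRNPD (0.19). Of the 3 genes past 2-fold on overexpression, SRSF1 turned to -1.12 by TPM and -0.59 by FPKM, and HNRNPAB to 0.42 against the sh control. DESeq2, limma-voom, DESeq2's size factors and no low-count filter turned 0 signs of named genes on knockdown or in the combined fit, and no member was called by any of them. Over the settings with a test (edgeR, DESeq2 or limma-voom), adjusted p of the 15 named genes ran from 0.415 to 1.00 on knockdown. That of the 13 named genes of the combined fit ran from 0.676 to 1.00. These ranges do not cover the other members. Adding the counts of a gene that shares exons and leaving HNRNPA2B1 out of the SR share were settings chosen after seeing the data.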
